A study of Mus musculus with 10 samples.

Results

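The genes described here are named for proteins of the mitochondrial ribosome. They were taken as the genes whose name on the array was Mrpl or Mrps followed by a number, which gave 76 of the 24001 genes tested: 47 named for the large subunit (Mrpl) and 29 named for the small subunit (Mrps). All 76 had at least 1 probe bright enough to be tested, and so no member was lost to the filter on dim probes. Gene expression was measured in livers of 8-week-old female C57BL/6 mice that had been fasted for 24 h. Treated mice then received acetaminophen in phosphate-buffered saline (PBS) by a single intraperitoneal injection of 350 mg/kg, and control mice received PBS alone. Livers were taken 3, 8, 24, 48 or 72 h later. Both groups had been fasted, and no liver from before the injection was used here, so control values at 3 h already include the fast. Each of 10 Agilent arrays carried RNA of a treated mouse labelled with Cy5 beside RNA of a control mouse labelled with Cy3, with 2 arrays at each time point. The dyes were not exchanged on any array, so at a single time point the dye and the treatment cannot be told apart.

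Mitochondria carry their own ribosome, which translates only the few proteins that mitochondrial DNA encodes. All of these are subunits of the respiratory chain and of ATP synthase. The RNA of this ribosome is made inside the organelle, whereas its proteins are encoded in the nucleus, made on cytosolic ribosomes and imported. Some of them descend from bacterial ribosomal proteins and others are found only in mitochondria. Acetaminophen overdose injures liver cells through a reactive metabolite that binds mitochondrial proteins among others, and the surviving hepatocytes later divide to restore the tissue.

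The 5 promoters that follow belong to the members with the 3 largest rises and the 2 largest falls at 48 h, the time point at which most members changed. They are shown so that the sequence before each gene can be set beside its values. Each runs from 250 bases before the start of the gene to 50 after it, on the gene's own strand, as given by RefSeq for GRCm38.p6. The genes are Mrps12 (chr7:28741772-28742071, minus strand), Mrpl12 (chr11:120484387-120484686, plus strand), Mrps18a (chr17:46110754-46111053, plus strand), Mrpl14 (chr17:45686099-45686398, plus strand) and Mrpl49 (chr19:6057706-6058005, minus strand). Capitals mark the letters CCGGAAG, the core of ETS family sites, and AAGATGGCG, the core of YY1 sites.
Mrps12: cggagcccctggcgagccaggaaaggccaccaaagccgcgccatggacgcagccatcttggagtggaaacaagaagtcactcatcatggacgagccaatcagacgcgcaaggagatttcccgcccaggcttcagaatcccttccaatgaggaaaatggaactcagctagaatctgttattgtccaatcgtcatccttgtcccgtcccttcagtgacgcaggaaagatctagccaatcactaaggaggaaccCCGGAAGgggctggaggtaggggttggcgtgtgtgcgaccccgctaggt
Mrpl12: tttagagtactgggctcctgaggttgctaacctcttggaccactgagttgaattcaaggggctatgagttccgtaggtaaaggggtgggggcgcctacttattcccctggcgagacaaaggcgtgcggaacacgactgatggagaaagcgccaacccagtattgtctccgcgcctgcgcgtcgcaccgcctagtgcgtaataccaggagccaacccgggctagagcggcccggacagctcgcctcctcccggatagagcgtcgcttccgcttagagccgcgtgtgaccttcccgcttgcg
Mrps18a: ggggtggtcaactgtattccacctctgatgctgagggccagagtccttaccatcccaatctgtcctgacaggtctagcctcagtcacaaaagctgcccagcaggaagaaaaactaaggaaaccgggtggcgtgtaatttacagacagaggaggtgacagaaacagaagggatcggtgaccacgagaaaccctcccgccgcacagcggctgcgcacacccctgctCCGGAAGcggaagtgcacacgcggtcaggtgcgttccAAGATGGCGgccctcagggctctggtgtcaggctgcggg
Mrpl14: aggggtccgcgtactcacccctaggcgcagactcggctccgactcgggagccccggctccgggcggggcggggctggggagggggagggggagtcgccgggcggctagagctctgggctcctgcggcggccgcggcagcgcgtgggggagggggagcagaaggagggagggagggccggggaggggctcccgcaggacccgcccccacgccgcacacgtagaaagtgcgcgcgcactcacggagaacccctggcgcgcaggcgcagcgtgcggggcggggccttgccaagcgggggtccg
Mrpl49: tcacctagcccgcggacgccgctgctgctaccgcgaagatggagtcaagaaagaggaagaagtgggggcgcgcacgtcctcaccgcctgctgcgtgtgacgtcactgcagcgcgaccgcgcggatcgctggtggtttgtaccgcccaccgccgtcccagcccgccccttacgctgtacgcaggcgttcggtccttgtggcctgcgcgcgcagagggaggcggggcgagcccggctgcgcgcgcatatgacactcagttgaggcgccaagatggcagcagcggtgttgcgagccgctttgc
The ETS letters occurred in the promoters of Mrps12 and Mrps18a, and the YY1 letters in that of Mrps18a. The promoters of Mrpl12, Mrpl14 and Mrpl49 held neither string in this window.

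The unit throughout is the log2 ratio of the treated to the control liver on an array after loess normalization, and a negative value means lower in the treated liver. A gene was called changed when the Benjamini-Hochberg adjusted p of limma, over all 24001 genes, was below 0.05. Mice carry separate numbers in the labels, and with 2 arrays per time point the p-values measure the spread between these few animals only. The arrays at each time point were scanned on 2 days and lay on different slides, so each array's own value is also a value within 1 scan day and 1 slide. Between 44.6% and 75.9% of all probes were well above background in Cy5 and between 59.7% and 83.6% in Cy3. Of the members, 71 were well above background in both channels on all 10 arrays and none was saturated. The 7 hepatocyte markers tested, Alb, Apoa1, Ttr, Serpina1a, Ahsg, Fgb and Hnf4a, were well above background in both channels on all 10 arrays. The dimmest was Mrpl21, well above background in Cy5 on 3 arrays and in Cy3 on 8, and its ratios are not interpreted. Across the 76 members, which are not independent replicates, the ratios on the 2 arrays of a time point had correlations of 0.62, 0.77, 0.68, 0.84 and 0.31 from the earliest to the latest time.

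Members fell at 3, 8 and 24 h, and most of those that changed at 48 h rose. Fallen members numbered 14, 25, 13, 7 and 0 from 3 to 72 h, and risen members 0, 0, 1, 29 and 0. The median log2 ratio of the members was -0.19, -0.29, -0.22, 0.28 and -0.09 at the 5 time points in order, while that of all genes lay within 0.0119 of 0. These medians depend on the scaling: with median centring in place of loess they were -1.18, -0.97, -0.79, 0.68 and -0.07, and the members differed from all genes by -0.94, -0.79, -0.72, 0.60 and -0.08. Every called member moved the same way on both arrays of its time point. In all, 54 of the 76 were called at some time between 3 and 48 h, or 71.1%, against 41.5% of all genes.

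**Figure D1:**
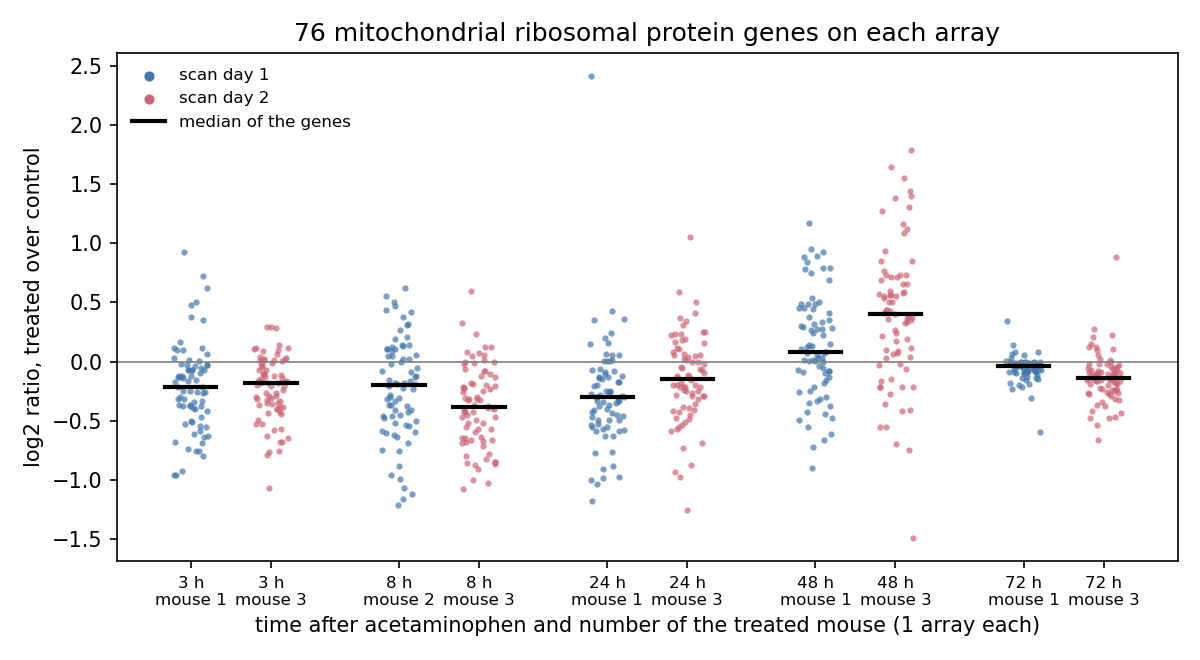
The log2 ratio of treated over control (vertical axis) is plotted for each of the 76 genes on each of the 10 arrays, ordered by time and named by the treated mouse. Colour gives the scan day and the black bar the median of the genes, which is below 0 on all 6 arrays from 3 to 24 h and reaches 0.08 and 0.40 at 48 h.

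**Figure D2:**
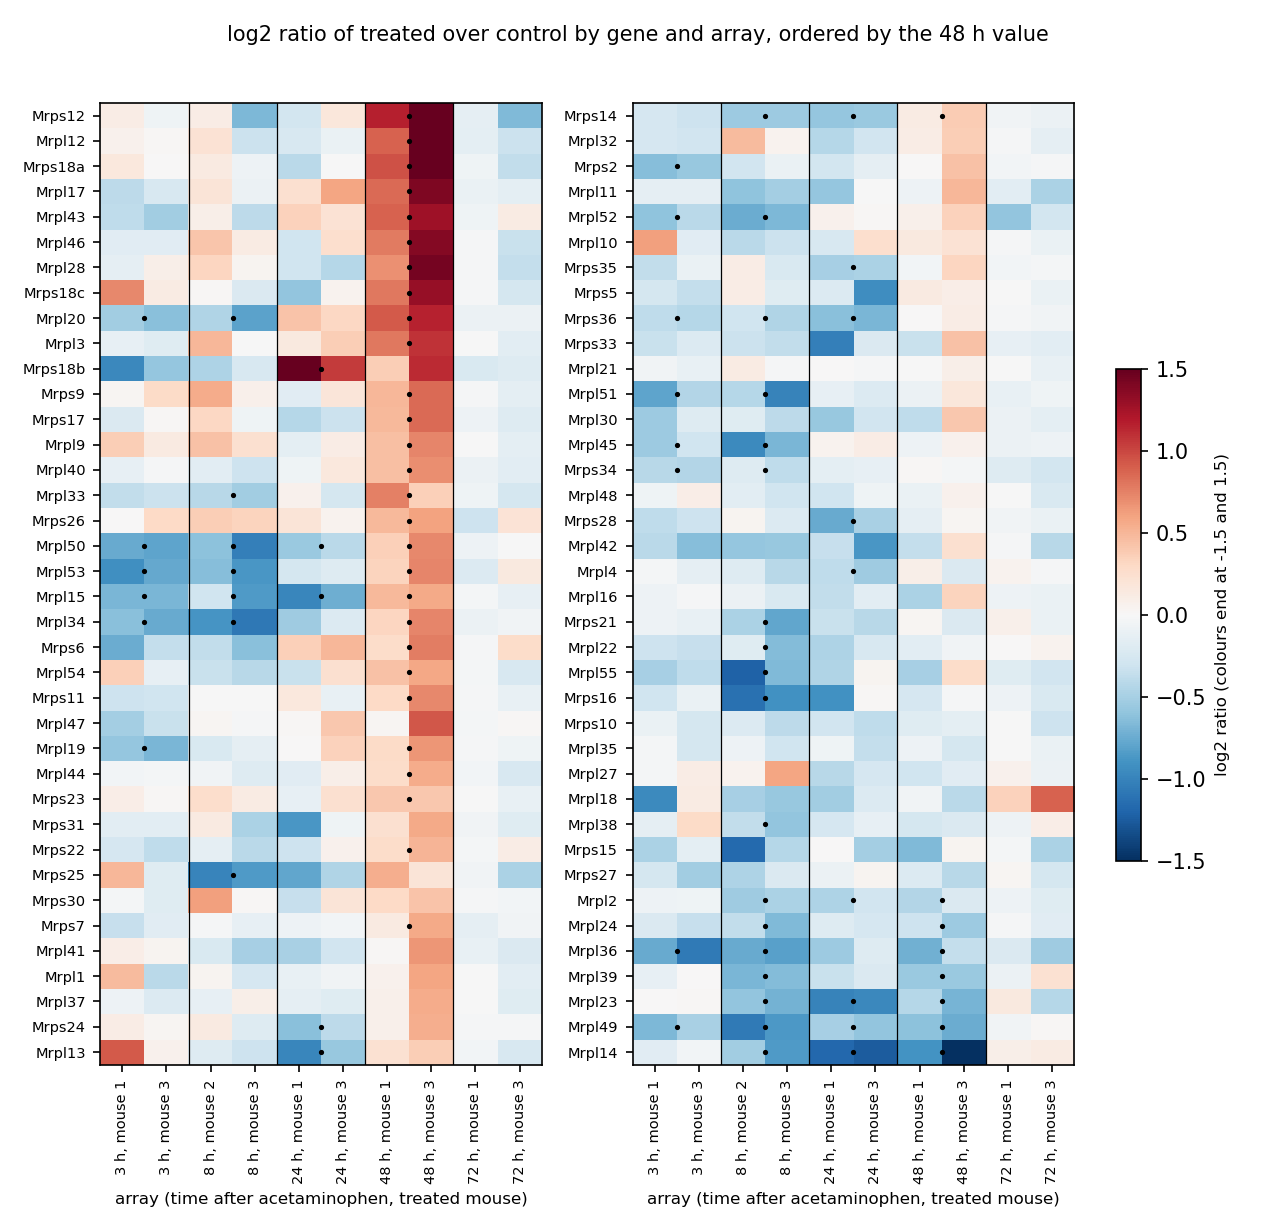
Each row is a gene, each column an array, and colour is the log2 ratio of treated over control, with the colours ending at -1.5 and 1.5. Rows run from Mrps12, highest at 48 h, to Mrpl14, lowest at 48 h, and a black dot between the 2 arrays of a time point marks a called gene.

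At 3 h, 14 members were lower in treated livers and 0 passed in the other direction. Over all genes 4.08% fell and 3.36% rose, against 18.4% and 0 of the members. The deepest fall was in Mrpl36, a bacterial-type protein of the large subunit, whose log2 ratios were -0.75 and -1.07 on the 2 arrays (fit -0.91 ± 0.14, SE, limma adjusted p = 0.00918). That is 1.88-fold lower in treated livers, on both scan days. Next came Mrpl53 and Mrpl50, large-subunit proteins found only in mitochondria. Mrpl53 was at -0.92 and -0.76 (-0.84 ± 0.12, adjusted p = 0.00822). Mrpl50 was at -0.76 and -0.79 (-0.77 ± 0.12, adjusted p = 0.00994). The bacterial-type large-subunit genes Mrpl34, Mrpl15 and Mrpl19 followed, with fits of -0.69 ± 0.12, -0.68 ± 0.13 and -0.63 ± 0.11. The remaining 8 lay between -0.61 and -0.40, and by symbol 11 of the 14 were large-subunit and 3 small-subunit genes. In RNA of whole liver, fewer cells of a type and less RNA per cell cannot be told apart. The count at 3 h rested on few arrays. Without the array of treated mouse 1 it was 0, without that of mouse 3 it was 3 (1 risen, 2 fallen), and with the slide as a block it was 0. The software's own ratios gave 1 fallen member, and median centring gave 35.

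At 8 h the falls were more numerous, with 25 members lower in treated livers and 0 called higher. The share was 32.9% of members, beside 7.58% of all genes that fell and 5.34% that rose. Mrps16, a bacterial-type small-subunit protein, was at -1.12 and -0.91 (-1.01 ± 0.19, adjusted p = 0.0135), which is 2.02-fold lower. Mrps25, a small-subunit protein specific to mitochondria, was at -0.99 and -0.85 (-0.92 ± 0.18, adjusted p = 0.0156). The most precise fall among the leading genes was that of Mrpl49, a mitochondria-specific large-subunit protein, at -1.06 and -0.87 (-0.96 ± 0.08, adjusted p = 0.000867). In all of these both treated livers were far below their control partners. Mrpl34 stood at -0.88 and -1.08 (-0.98 ± 0.12, adjusted p = 0.00265) and Mrpl55 at -1.21 and -0.66 (-0.94 ± 0.20, adjusted p = 0.0224). Mrpl45, which lies at the tunnel exit where the ribosome meets the inner membrane, was at -0.95 and -0.69 (-0.82 ± 0.09, adjusted p = 0.00203). The remaining 19 lay between -0.82 and -0.29. Of the 25, 19 were large-subunit genes by symbol, and 12 had already been called lower at 3 h (15.8% of members fell at both times, against 2.21% of all genes). Of 7 hepatocyte markers 3 rose and 0 fell at 8 h (median 0.23), beside 5.34% of all genes that rose, and at 3 h 0 of 7 were called (median 0.31). Their part in the members' values was not tested. Leaving out either 8 h array left 9 fallen members, and the slide as a block left 10. The software's own ratios gave 8 and median centring 9, all of them falls.

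No member differed between 8 and 3 h by limma's contrast of these time points, which called 0.825% of all genes. At an unadjusted p under 0.05, 3 members were higher and 13 lower at 8 h than at 3 h, with 7.07% and 9.65% of all genes, and leaving out 1 array at a time gave 0 to 2 called members. No member's fall was therefore shown to be deeper at 8 h than at 3 h.

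At 24 h, 13 members were lower and 1 was higher in treated livers, or 17.1% lower, beside 7.09% of all genes that fell and 3.79% that rose. Mrpl14, a bacterial-type large-subunit protein at the interface of the subunits (probe at chr17:45835317-45835376, mm9, plus strand), was at -1.18 and -1.25. Its fit was -1.21 ± 0.14 (adjusted p = 0.00122), or 2.32-fold lower. Mrpl23, which borders the exit tunnel, was at -0.997 and -0.972 (-0.98 ± 0.13, adjusted p = 0.00241). Both genes were close to 0 at 3 h and 72 h on most arrays, Mrpl14 at -0.17 and -0.04 and then 0.09 and 0.12, and Mrpl23 at 0.01 and 0.01 and then 0.14 and -0.43. Mrpl15 was at -0.98 and -0.73 (-0.85 ± 0.13, adjusted p = 0.00402), and Mrpl13 at -0.97 and -0.57 (-0.77 ± 0.19, adjusted p = 0.0369). The call of Mrpl13 was kept in 7 of 22 alternative analyses. Among small-subunit genes by symbol, Mrps36 was at -0.63 and -0.69 (-0.66 ± 0.07, adjusted p = 0.000848) and Mrps28 at -0.76 and -0.49 (-0.62 ± 0.09, adjusted p = 0.00478). The protein of Mrps36, despite its name, is now placed in the oxoglutarate dehydrogenase complex. Fallen at 3, 8 and 24 h alike were 4 genes, Mrpl15, Mrpl49, Mrpl50 and Mrps36, or 5.26% of members beside 0.55% of all genes. The second probe of Mrpl50 was at -0.36, -0.06 and -0.06 at these times and was never called. That of Mrpl49 was called lower at 8 h only, that of Mrps36 at 8 and 24 h, and that of Mrpl15 at all 3 times. At 24 h 3 of 7 hepatocyte markers fell (median -0.43) and 3 of 6 neutrophil markers rose (median 0.73), and their part in the members' values was not tested. Without the 24 h array of mouse 1, 7 members were called, without that of mouse 3, 8, and with the slide as a block, 6. Median centring left 0.

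The 1 member called higher at 24 h was Mrps18b, a small-subunit relative of bacterial S18. Its log2 ratios were 2.41 and 1.05 at 24 h (1.73 ± 0.29, adjusted p = 0.00779), 3.32-fold higher in treated livers, against -0.96 and -0.58 at 3 h. After loess the treated channel held the difference. Log2 levels in treated livers were 13.54 and 12.50 at 24 h, above all 8 other treated livers, which lay between 10.66 and 11.92, whereas control livers stood at 11.13 and 11.45 at 24 h. The value rests on 1 of the 2 probes of the gene. The probe used here (chr17:36047331-36047390, mm9, minus strand) gave those ratios, while a probe across an exon junction (chr17:36051313-36051461) gave -0.03 and 0.40 at 24 h (0.19, adjusted p = 0.789). The sequence of the junction probe, shown because its values differ from those of the probe used here, is that of the array's own annotation.
Mrps18b junction probe: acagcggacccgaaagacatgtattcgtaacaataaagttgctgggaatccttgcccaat
At 48 h the junction probe was at 0.87 (adjusted p = 0.027). The rise at 24 h was thus called by 1 probe and not by the other.

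At 48 h, 29 members were higher and 7 lower in treated livers, or 38.2% and 9.21%, beside 17.9% of all genes that rose and 13.5% that fell. Mrps12, which lies at the decoding centre of the small subunit (probe at chr7:29524837-29524896, mm9, minus strand), was at 1.17 and 1.64, against 0.11 and -0.07 at 3 h. Its fit was 1.41 ± 0.22 (adjusted p = 0.00222), or 2.65-fold higher. Mrpl12, the stalk protein that helps recruit translation factors (chr11:120349740-120349799, plus strand), was at 0.88 and 1.79 (1.33 ± 0.20, adjusted p = 0.00214), or 2.52-fold. In both genes the array of mouse 3 gave the higher ratio, and both arrays at 48 h were above all 8 others. Mrps18a, a relative of bacterial S18 whose protein sits in the large subunit despite its symbol, was at 0.95 and 1.55 (1.25 ± 0.16, adjusted p = 0.001), or 2.38-fold. Mrpl17 followed at 0.84 and 1.40 (1.12 ± 0.14, adjusted p = 0.00101) and Mrpl43 at 0.89 and 1.27 (1.08 ± 0.13, adjusted p = 0.000908). Mrpl46, a mitochondria-specific protein of the large subunit, was at 0.78 and 1.38 (1.08 ± 0.18, adjusted p = 0.0029). The other 23 risers lay between 0.25 and 1.06.

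The size of the 48 h group depended on 1 array and on the scaling. Without the array of treated mouse 3, 16 members were called (10 risen, 6 fallen), and with the slide as a block 13 (8 and 5). The scanner software's own ratios gave 13 risen and 6 fallen, and median centring of each array in place of loess gave 10 and 0. The median of the members differed between the arrays, 0.08 for mouse 1 and 0.40 for mouse 3. In the same livers 4 of 7 hepatocyte markers fell, with fits from -2.41 to -0.09 and a median of -0.54. Of 6 neutrophil markers 5 rose, with fits from -0.45 to 3.66 and a median of 1.26, and of 6 monocyte and macrophage markers 4 rose, with fits from -0.56 to 2.65 and a median of 0.72. Among 8 Kupffer cell markers 2 rose, among 7 markers of cycling cells 2, among 5 endothelial markers 1 and among 3 cholangiocyte markers 1, while 1 of 5 stellate cell markers fell and 0 of 6 lymphocyte markers passed. Over all genes 17.9% rose and 13.5% fell at 48 h. The part of these cell types in the members' values was not tested.

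The 7 members that fell at 48 h were all large-subunit genes, and all 7 had been called lower at an earlier time point (9.21% of members fell both at 48 h and earlier, beside 6.15% of all genes). Mrpl14 stood apart at -0.90 and -1.49 (-1.19 ± 0.14, adjusted p = 0.000669), or 2.29-fold lower in treated livers. Mrpl49 was at -0.61 and -0.75 (-0.68 ± 0.08, adjusted p = 0.000812). Mrpl39, a mitochondria-specific protein, was at -0.55 on both arrays (-0.55 ± 0.09, adjusted p = 0.00253). A second probe of Mrpl49 was at -0.03 and 0.34 at 48 h (0.15, adjusted p = 0.358), and a second probe of Mrpl39 at -0.13 and -0.33 (-0.23, adjusted p = 0.062). The fall of Mrpl49 was thus seen by 1 of 2 probes. Mrpl23 (-0.43 and -0.70), Mrpl36 (-0.72 and -0.36) and Mrpl24 (-0.32 and -0.55) were lower by fits of -0.56, -0.54 and -0.43, but with median centring their fits were 0.07, 0.00031 and 0.20, so their direction depends on the loess. The same centring gave -0.49 for Mrpl14, -0.27 for Mrpl49 and -0.06 for Mrpl39 and called none of the 7. Mrpl2, a protein of the peptidyl transferase centre, was at -0.33. Falls at both 24 and 48 h were found in 4 members (5.26%), beside 4.43% of all genes.

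A group of 8 members was lower at 3, 8 or 24 h and higher at 48 h, or 10.5% of members, beside 2.03% of all genes. These were Mrpl15, Mrpl19, Mrpl20, Mrpl33, Mrpl34, Mrpl50 and Mrpl53 of the large subunit and Mrps14 of the small subunit. At 48 h a second probe was at -0.48 in Mrpl15 and -0.13 in Mrps14, against the rise, and at 0.60 in Mrpl50, with it. The rises of Mrpl15 and Mrps14 thus rest on 1 of 2 probes. The falls of Mrpl50 and Mrps14 were likewise called by 1 of 2 probes. The second probe of Mrpl50 was at -0.36, -0.06 and -0.06 at 3, 8 and 24 h. That of Mrps14 was at -0.26 and -0.12 at 8 and 24 h. Mrpl20, a bacterial-type protein known for its early place in assembly of the bacterial large subunit, showed the fall and later rise most steeply. Its ratios were -0.52 and -0.62 at 3 h and -0.45 and -0.80 at 8 h. They were 0.43 and 0.31 at 24 h and then 0.92 and 1.16 at 48 h (1.04 ± 0.10, adjusted p = 0.000313). All 4 early arrays were thus below 0 and all 4 arrays at 24 and 48 h above it. At 48 h Mrpl34 was at 0.32 and 0.73, Mrpl50 at 0.35 and 0.72 and Mrpl53 at 0.33 and 0.73, after falls of 0.69 or more at 3 h. Mrps14 moved the least, at 0.12 and 0.38 after -0.55 on both arrays at 8 h. The 6 members with the smallest p by the F test over time points were all among these 8, with adjusted p = 0.0014 for Mrpl20, 0.00472 for Mrpl34, 0.00493 for Mrpl50, 0.00592 for Mrpl53, 0.00609 for Mrps14 and 0.00642 for Mrpl15. The 8 were chosen by opposite calls on the same ratios, which by itself favours a small p in this test. Their rank is therefore not separate evidence. A further 21 members rose at 48 h without an earlier call (27.6%, beside 11.8% of all genes), and 22 were called at no time point (28.9%, beside 58.5%).

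Differences between neighbouring time points do not carry a dye effect that is constant over the arrays. From 8 to 24 h 5 members moved up, beside 2.47% of all genes. These were Mrps18b by 2.08 ± 0.42, Mrpl20 by 0.99 ± 0.14, Mrps6 by 0.93 ± 0.21, Mrpl45 by 0.91 and Mrpl52 by 0.75. The calls of Mrps18b and Mrps6 were kept in 11 and 8 of 22 alternative analyses. From 24 to 48 h 23 members moved up and none down, beside 7.8% of all genes that moved up. Mrpl12 led at 1.51 ± 0.29 (limma adjusted p = 0.0178), then Mrps12 at 1.46 ± 0.30 (adjusted p = 0.0237) and Mrps18a at 1.45 ± 0.23 (adjusted p = 0.00958). The same 3 genes led the downward moves from 48 to 72 h, Mrps12 at -1.81 ± 0.30, Mrpl12 at -1.57 ± 0.29 and Mrps18a at -1.47 ± 0.23. Both differences use the same 2 arrays at 48 h with opposite sign, so 1 extreme 48 h value favours a move in each. The moves from 48 to 72 h are therefore not separate evidence. In all, 19 members moved down from 48 to 72 h and 3 moved up, beside 10% and 6.56% of all genes. The 3 were Mrpl14 at 1.30 ± 0.19, Mrpl49 at 0.67 ± 0.12 and Mrpl39 at 0.62 ± 0.12, which had all been lower in treated livers at 48 h. The second probe of Mrpl49 went the other way, from 0.15 at 48 h to -0.21 at 72 h, so that move rests on 1 of 2 probes. Over all 5 time points the F test called 32 of the 76 members (42.1%), beside 23.3% of all genes. Without the 48 h array of mouse 3 the moves from 24 to 48 h numbered 6 members and those from 48 to 72 h 8. With the slide as a block they numbered 0 from 8 to 24 h, 0 from 24 to 48 h and 16 from 48 to 72 h, and the F test called 1 member.

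At 72 h no member was called, and neither was any other gene (0% by limma). At an unadjusted p under 0.05, 1 member was higher and 3 were lower, with 1.36% and 1.83% of all genes. The values furthest from 0 were those of Mrpl18 at 0.35 and 0.88 and of Mrpl52 at -0.60 and -0.27.

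The single channels are given as log2 levels after loess and scaling of the channels to a common level. How a change of the ratio divides between them depends on the scaling, and with median centring both sides moved, as given below. In treated livers the median change of the members from 3 to 48 h was 0.04, with 4 risen and 0 fallen, against a median change of -0.36 in control livers, with 1 risen and 18 fallen. Over all genes the treated channel rose at 48 h in 7.98%, and the control channel rose in 2.8% and fell in 4.43%. The treated level at 48 h was above its 3 h value in 45 of the 76 members, and the control level in 18. Among the 29 members with a higher ratio at 48 h, a choice that by itself favours high treated and low control levels, the treated level was above its 3 h value in 23 (79.3%, called in 10.3%) and the control level below it in 28 (96.6%, called in 44.8%). Among all 4306 genes with a higher ratio the same shares were 92% (called in 37.9%) and 72.7% (called in 16.1%). The ratio and the channels come from the same spots, so these are descriptions of 1 measurement and not separate tests, and the difference between members and all genes was not tested.

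After loess, Mrps12 shows the pattern most plainly. Its treated level was 11.17 and 10.99 at 48 h and 11.28 and 11.01 at 3 h. Its control level was 9.996 and 9.35 at 48 h and 11.17 and 11.08 at 3 h. Treated livers at 48 h were thus within the range of their 3 h values or just below it, and control livers at 48 h were lower than at any other time (-1.46 ± 0.22, limma adjusted p = 0.0176). In Mrpl12 the treated level was 11.89 and 11.67 at 48 h and 12.09 and 11.83 at 3 h. Its control level was 11.01 and 9.88 at 48 h and 12.02 and 11.82 at 3 h (-1.47 ± 0.31, adjusted p = 0.0321). The 2 control livers at 48 h differed from each other by over 1 log2 unit, but both were below all others. In Mrpl14 the control side went the other way, with treated levels of 12.16 and 11.83 and control levels of 13.06 and 13.32 at 48 h, against treated levels of 12.61 and 12.23 and control levels of 12.78 and 12.27 at 3 h. Neither channel of Mrpl14 passed on its own from 3 to 48 h (control 0.67 ± 0.18, adjusted p = 0.0591). Its treated channel did pass the F test over all time points (adjusted p = 0.00894).

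The treated channel rose from 3 to 48 h in Mrpl33 (1.11 ± 0.18, adjusted p = 0.00678), Mrpl52 (0.90 ± 0.17, adjusted p = 0.0119), Mrpl20 (0.89 ± 0.18, adjusted p = 0.0161) and Mrpl17 (0.66 ± 0.14, adjusted p = 0.0155). Between 3 and 24 h the treated channel held 5 rises and 3 falls of members, beside 5.5% and 5.03% of all genes. Mrps18b rose by 2.16 ± 0.38 (adjusted p = 0.00833) and Mrpl13 fell by 1.14 on the log2 scale (SE 0.25, adjusted p = 0.0231). At 72 h, 5 members were lower than at 3 h in treated livers (2.4% of all genes fell), led by Mrps12 at -1.13 ± 0.21 (adjusted p = 0.0239). In control livers too 5 were lower at 72 h (1.73% of all genes), led by Mrpl15 at -1.08 ± 0.18 (adjusted p = 0.03). By the F test over time 20 members were called in the treated channel and 7 in the control channel, beside 19.2% and 3.48% of all genes. Leaving out 1 array at a time gave 8 to 14 in the treated channel, lowest without the 72 h array of mouse 3, and 0 to 10 in the control channel.

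These channel results depended on single arrays and on the scaling. The control count of 19 at 48 h was 0 without either 3 h array, 0 without the 48 h array of mouse 3 and 0 with the slide as a block, and it was 10 without either 72 h array. The median of -0.36 lay between -0.38 and -0.32 when 1 array at a time was left out. With median centring in place of loess the control median was -1.02, 38 members fell in control livers, the treated median was 0.80 and 31 members rose in treated livers. A near absence of change in the treated channel thus holds after loess only. Loess on an array balances the channels at each intensity, and median centring does not.

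**Figure D3:**
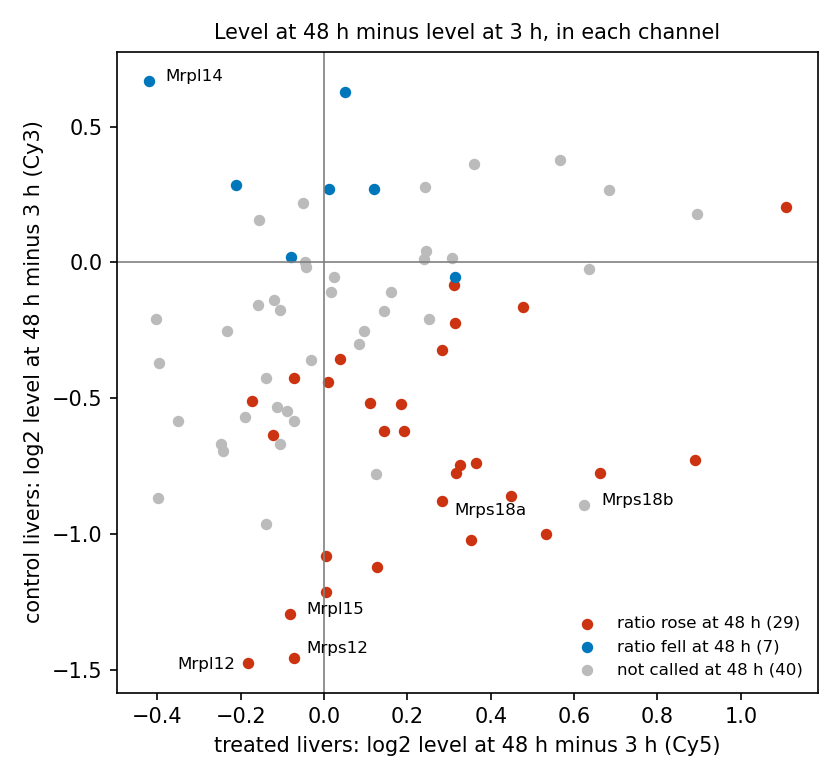
Each point is a gene: the horizontal axis is its log2 level in treated livers at 48 h minus that at 3 h, and the vertical axis the same difference in control livers. Red points are the 29 genes whose ratio rose at 48 h, of which 28 lie below 0 on the control axis (96.6%, beside 72.7% of all genes chosen in the same way), blue points the 7 whose ratio fell, and grey points the 40 not called.

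Over all genes 4.08%, 7.58%, 7.09% and 13.5% fell at 3, 8, 24 and 48 h, and 17.9% rose at 48 h. By subunit, 11, 19, 8 and 7 of the 47 Mrpl genes fell at 3, 8, 24 and 48 h, and 17 rose at 48 h. Of the 29 Mrps genes 3, 6, 5 and 0 fell, and 12 rose at 48 h with 1 at 24 h. By origin, and with proteins placed by structure and not by symbol, the 29 bacterial-type large-subunit genes held 5, 10, 6 and 5 falls and 10 rises at 48 h. The 20 mitochondria-specific large-subunit genes, which include Mrpl57 from outside the naming rule, held 7, 9, 2 and 2 falls and 7 rises. The 17 bacterial-type small-subunit genes held 1, 3, 3 and 0 falls and 8 rises at 48 h. The mitochondria-specific small-subunit group of 13 includes 4 genes outside the naming rule and held 1, 4, 3 and 1 falls and 4 rises. Among those 4, Dap3, a GTP-binding protein of the small subunit, was at -0.92 and -0.42 at 8 h (-0.67 ± 0.16, adjusted p = 0.0359). Aurkaip1 was at -0.61 and -0.59 at 48 h (-0.60 ± 0.11, adjusted p = 0.00516), and Chchd1 at 0.62 and 0.90 (0.76 ± 0.13, adjusted p = 0.00319). Each class thus held both falls and rises, and differences between classes were not tested. Mrps18a and Mrps36 were counted in none of these classes. Mrpl57 and Mrpl58, listed on the array under older names and so outside the rule, were at -0.39 (adjusted p = 0.0307) and 0.50 (adjusted p = 0.18) at 3 h.

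Proteins of the cytosolic ribosome and subunits of the respiratory chain, whose mitochondrially encoded partners this ribosome makes, took other courses in the same livers. Of 83 cytosolic ribosomal protein genes, 0, 1, 20 and 63 rose and 1, 1, 1 and 0 fell at 3, 8, 24 and 48 h, with medians of -0.08, 0.01, 0.34 and 0.90. Of 76 respiratory chain genes encoded in the nucleus, 0, 2, 0 and 10 rose and 0, 7, 59 and 40 fell, with medians of -0.03, -0.19, -0.89 and -0.46. The risen cytosolic genes were 24.1% at 24 h and 75.9% at 48 h, beside 3.79% and 17.9% of all genes. The fallen respiratory chain genes were 77.6% and 52.6% at these times, beside 7.09% and 13.5% of all genes. The mitochondrial ribosomal protein genes had the more numerous falls of the 3 groups at 3 and 8 h. At 48 h their median of 0.28 lay between the others. None of the 3 groups had a called gene at 72 h. The difference between groups was not tested.

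**Figure D4:**
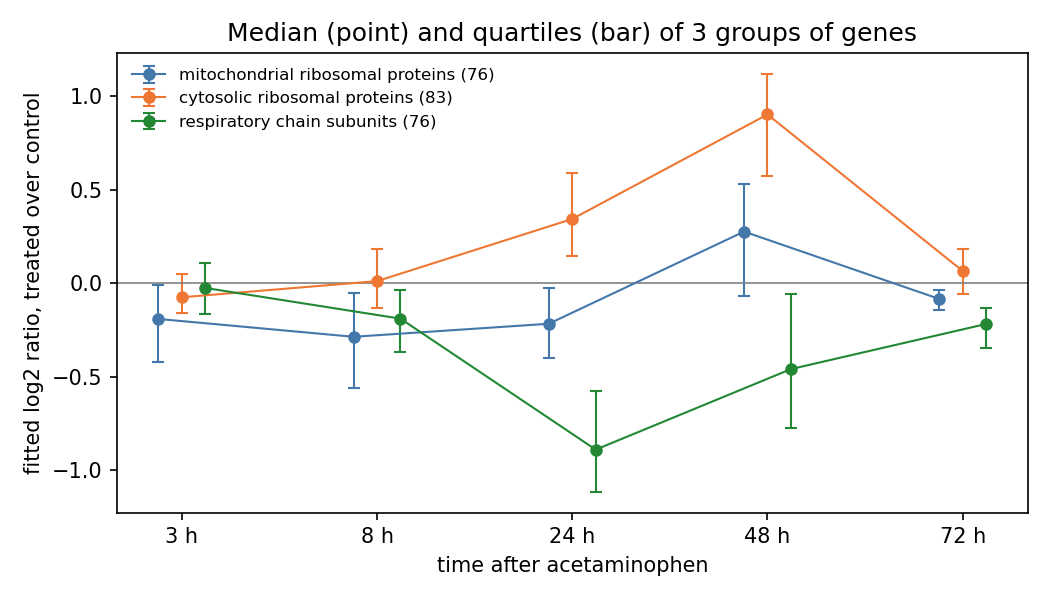
Points are the median fitted log2 ratio of treated over control of each group of genes at each time point, and bars run from the lower to the upper quartile. The mitochondrial ribosomal protein genes run at -0.19, -0.29 and -0.22 up to 24 h and at 0.28 at 48 h, the cytosolic ribosomal protein genes reach 0.90 at 48 h and the respiratory chain genes -0.89 at 24 h.

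Other genes of mitochondrial translation were read from lists. Of 15 translation factor genes 0, 2, 3 and 2 fell at 3, 8, 24 and 48 h, and 2 rose at 48 h. The shares at 48 h, 13.3% risen and 13.3% fallen, were not above the 17.9% and 13.5% of all genes. Tufm, the elongation factor that brings tRNAs to the ribosome, was at -0.42 and -0.73 at 8 h and -0.68 and -0.83 at 24 h (-0.75 ± 0.14, adjusted p = 0.0133). Its exchange factor Tsfm was at 0.47 and 1.05 at 48 h (0.76 ± 0.13, adjusted p = 0.00375), and the translocation factor Gfm1 at 0.37 and 1.16 (0.76 ± 0.22, adjusted p = 0.0321). Of 24 genes for ribosome assembly and rRNA modification, 4 and 6 fell at 3 and 8 h, and 6 rose and 3 fell at 48 h. The early falls were 16.7% and 25% of the list, beside 4.08% and 7.58% of all genes. At 8 h the rRNA methyltransferase gene Mrm1 was at -1.02 ± 0.20 (adjusted p = 0.0149). At 48 h Mpv17l2 rose (0.62 and 1.26, fit 0.94 ± 0.13, adjusted p = 0.00156), and so did the helicase gene Ddx28 (0.21 and 1.66, fit 0.93 ± 0.29, adjusted p = 0.0431). The small-subunit rRNA chaperone gene Eral1 fell at 48 h (-0.69 and -0.64, fit -0.66 ± 0.10, adjusted p = 0.00352). The list's shares at 48 h, 25% risen and 12.5% fallen, lay near those of all genes.

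Of 18 mitochondrial tRNA synthetase genes 2, 5, 2 and 2 fell at 3, 8, 24 and 48 h, and 1 rose at 8 h and 4 at 48 h, Iars2 by 0.89 ± 0.12 (adjusted p = 0.00137). The shares at 48 h, 22.2% risen and 11.1% fallen, lay near the 17.9% and 13.5% of all genes. Hars2 fell at all 4 times, at -0.29, -0.30, -0.33 and -0.55. Of 22 genes for protein import, the route by which the members' products enter mitochondria, 10 rose at 48 h and 2 fell. These were 45.5% and 9.09%, beside 17.9% and 13.5% of all genes. The import motor gene Hspa9 was at 1.79 and 2.87 (2.33 ± 0.27, adjusted p = 0.000656), and the inner membrane import gene Timm22 at 1.04 and 1.33 (1.18 ± 0.10, adjusted p = 0.000167). At 3 and 8 h, 0 and 4 import genes fell, beside 4.08% and 7.58% of all genes. Among 10 regulators of mitochondrial biogenesis, Ppargc1a, a coactivator of such genes, was higher at 3 h (1.12 and 1.07, fit 1.09 ± 0.17, adjusted p = 0.0113). Esrra, a nuclear receptor that it works with, was lower at 3 and 8 h (-0.68 ± 0.16 and -1.02 ± 0.16). Nrf1, a transcription factor of such genes, was at 0.45 and 0.53 at 3 h (0.49 ± 0.09, adjusted p = 0.018). Myc, a transcription factor of growth and ribosome production, was at 1.97 and 2.12 at 8 h (2.04 ± 0.18, adjusted p = 0.000985) and at 1.21 and 1.30 at 48 h.

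Promoters were available for 67 of the 76 members. Each promoter of 300 bases was searched for short strings on both strands, and each string is only a match of letters. The ETS string CCGGAAG occurred in 24 of 67 members (35.8%), beside 15.5% of 13732 tested genes with a promoter. The YY1 string AAGATGGCG occurred in 8 (11.9%), beside 2.72%, and the NRF1 string CGCATGCG in 7 (10.4%), beside 3.3%. The E-box CACGTG, which MYC and other factors bind, was in 5 (7.46%), beside 10.1%. The TATA string TATAAA was in 5 (7.46%), beside 12.1%, and the GC box GGGCGG in 33 (49.3%), beside 56.7%. The ETS string was in 12 of the 26 members with a promoter that rose at 48 h (46.2%) and in 12 of the other 41 (29.3%). No test of these shares was made, and of the promoters printed above those with the ETS letters belong to risers, as does Mrpl12, which has none.

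Where a gene had several kept probes, which was so for 23 members, all its probes had the same sign in 17, 19, 18, 14 and 14 genes at the 5 time points in order. Of the called members with another kept probe, 5, 8, 7 and 11 at 3, 8, 24 and 48 h, the other probe had the same sign in 5, 8, 7 and 8 and was itself called that way in 1, 3, 3 and 4. The second probe of Mrps25 was at -0.10 at 8 h (adjusted p = 0.71) and that of Mrpl50 at -0.06 (adjusted p = 0.836). That of Mrps14 was at -0.13 at 48 h (adjusted p = 0.219), opposite in sign to the probe used. Mrpl15 was the 1 member with probes called in opposite directions. At 48 h the probe used here, which crosses an exon junction (chr1:4766862-4767644, mm9, minus strand), was at 0.49 and 0.57 (0.53, adjusted p = 0.0151). The other probe (chr1:4764533-4764592, minus strand) was at -0.50 and -0.46 (-0.48, adjusted p = 0.00944). Both probes were lower in treated livers at 3, 8 and 24 h, the other probe at -0.89, -1.25 and -0.43, so the disagreement concerns 48 h and Mrpl15 is uncertain there. The junction probe is shown because the rise of Mrpl15 at 48 h rests on it.
Mrpl15 junction probe: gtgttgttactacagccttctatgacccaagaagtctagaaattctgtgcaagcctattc
The place of the other probes within their transcripts was not analysed here. The 2 junction probes were recognised because their coordinates span more than their 60 bases.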

How the data were processed

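Each array compared liver RNA of a treated mouse (Cy5) and a control mouse (Cy3). Per the file headers, the software was Agilent Feature Extraction 10.7.3.1. For each spot the deposited files hold mean and background intensity in both channels, the log10 ratio after the software's own correction, and flags (1 or 0) for spots above background, saturated or outlying. The authors' deposited value table is a score of unstated scale. Set against the scanner files it was a constant multiple of the log10 ratio on every array, in the direction of treated over control, and it was used only as an alternative. Probe coordinates are on mm9, per the file headers.

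In limma 3.58.1 (R 4.3.3), normexp with an offset of 50 corrected the mean intensities for background, and loess normalized the log2 ratios of each array. Control spots and outlying spots had weight 0, and 2718 outlying spots were then left out. Spots of a probe were averaged. Probes had to be well above background, in 1 channel, on both arrays of some time point, and the brightest kept probe stands for its gene. Probes were named through RefSeq (GRCm38.p6), 97 of the 101 member probes by accession and 4 by symbol. The fit had a coefficient per time point over all 10 arrays and 5 residual degrees of freedom (lmFit and eBayes), with Benjamini-Hochberg adjustment over 24001 genes. Single channels were taken after Aquantile scaling. The procedure was tested on simulated data. The number of arrays limits the precision.

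The members, companion lists, markers and rules were chosen with earlier results of these data known. Members named are the 6 largest called changes each way at a time point, the 3 largest each way between neighbouring time points, the 6 members that the F test ranked highest, those called in opposite directions, those with disagreeing probes, the dimmest and brightest, and the 3 largest changes in each channel. From companion lists up to 3 called genes each way per time point were eligible. Mrpl2, Dap3, Aurkaip1, Chchd1, Mrpl45 and Mrpl52 between 8 and 24 h, Mrpl57 and Mrpl58 were named after their values were seen. Alternatives were other background corrections, scalings, filters and blocks, and leaving out each array.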

Additional observations from a re-analysis of the deposited data

Results flagged for a closer look

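The log2 ratio differed between neighbouring time points, by limma's contrast of the 2 time points, in 5 members from 8 to 24 h. From 24 to 48 h it differed in 23, and from 48 to 72 h in 22. The 5 and the 23 moved up, beside 2.47% and 7.8% of all genes. Of the 22, 3 moved up and 19 down, beside 6.56% and 10% of all genes. These counts depended on the slide block and on the scaling, as given below. From 8 to 24 h the ratio moved up by 2.08 in Mrps18b, 0.99 in Mrpl20 and 0.93 in Mrps6 on the log2 scale. From 24 to 48 h it moved up by 1.51 in Mrpl12, 1.46 in Mrps12 and 1.45 in Mrps18a. From 48 to 72 h it moved by 1.30 in Mrpl14, 0.67 in Mrpl49, 0.62 in Mrpl39, -1.81 in Mrps12, -1.57 in Mrpl12 and -1.47 in Mrps18a. Moves to and from 48 h share the 48 h arrays and are not separate observations. The move of Mrps18b was seen by 1 of its 2 probes. So was that of Mrpl49, whose second probe went from 0.15 at 48 h to -0.21 at 72 h. The changes of Mrps12 and Mrpl12 at 48 h went with lower levels in control livers after loess.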

How the results depend on the processing

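With 2 arrays per time point, counts moved with the processing. Of 946 comparisons of a named gene with an alternative, 797 kept direction and call, 146 kept the direction and missed the threshold and 3 changed sign. The 3 were at 48 h with median centring in place of loess, Mrpl23 at 0.0688, Mrpl24 at 0.199 and Mrpl36 at 0.000314. Leaving out an array of a time point not compared cannot change a fitted value, so the total is not a measure of support. The least stable call was that of Mrpl13 at 24 h, kept in 7 of 22 alternatives. From 8 to 24 h the call of Mrps6 was kept in 8 of 22 and that of Mrps18b in 11.

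Median centring gave medians of -1.18, -0.971, -0.791 and 0.684 at 3, 8, 24 and 48 h (all genes -0.24, -0.18, -0.07 and 0.08), called 35, 9, 0 and 10 members at these times, 0, 0 and 0 between neighbouring times from 8 h on, 2 by the F test, 0 and 13 over time in the control and treated channels, and 38 and 31 from 3 to 48 h in these channels (medians -1.02 and 0.802). The software's own ratios and the authors' value table gave 1, 8 and 19 members at 3, 8 and 48 h, 2, 5 and 12 between the last 4 time points, 13 by the F test, and medians of -0.252 at 3 h and -0.272 at 72 h. The slide as a block gave 0, 10, 6 and 13 at 3 to 48 h, 0 and 0 for the moves to 24 and to 48 h, 1 by the F test, 0 and 11 over time in the control and treated channels, 0 and 0 from 3 to 48 h in them, medians of -0.14 at 3 h and -0.172 at 72 h, and a control median of -0.189.

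Without background correction 5 and 22 members were called at 3 and 24 h, 8 from 8 to 24 h, 0 over time and 11 from 3 to 48 h in the control channel, with a median of -0.237 at 72 h. With an offset of 0 the counts were 9 and 9 at 3 and 24 h, 3, 12 and 14 for the later moves, 0 and 8 over time in the control and treated channels and 7 and 2 from 3 to 48 h in them, with a median of -0.228 at 3 h. An intensity trend in eBayes gave 9 at 3 h, 15 from 24 to 48 h and 11 over time in the treated channel. For the control channel over time, no filter on dim probes gave 3, a stricter one 13 and the scan day as a block 14, and the stricter filter put the 3 h median at -0.236.

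Leaving out 1 array at a time gave 0 to 16 members at 3 h, 9 to 28 at 8 h, 7 to 17 at 24 h and 16 to 35 at 48 h. It gave 0 to 2, 2 to 6, 6 to 31 and 8 to 30 for the moves between neighbouring times, 20 to 32 by the F test, 0 to 10 and 8 to 14 over time in the control and treated channels, and 0 to 22 and 1 to 4 from 3 to 48 h in them. The array left alone at a time point is then assumed to vary like the others.

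The replicate numbers do not pair the samples, since same-numbered mice at different times are different animals. Their deviations correlated at -0.04 to 0.29 between time points that share both replicate numbers. Between time points that share 1 number the correlations were -0.12 to -0.07. With the replicate block, 5, 23, 11, 36 and 0 members were called at the 5 times, 3 from 8 to 24 h and 17 over time in the control channel, with a 3 h median of -0.135.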

Other observations

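Of the 67 members with a promoter, 26 had a neighbouring gene that starts within 1000 bases on the opposite strand and runs the other way (38.8%), beside 16.8% of 13732 tested genes with a promoter. The neighbour was itself tested in 25 of these cases, with the pair of Mrpl46 and Mrps11 counted from both sides. At 48 h member and neighbour were both called in the same direction in 4 cases, in opposite directions in 0, only the member was called in 7 and only the neighbour in 9. Mrps12 stood at 1.41 while Sars2, the mitochondrial seryl-tRNA synthetase gene that starts 147 bases away, was at -0.26 ± 0.20 (limma adjusted p = 0.368). Mrpl43 was at 1.08 and Twnk, the mitochondrial DNA helicase gene 116 bases away, at -0.11 ± 0.10 (adjusted p = 0.436). Mrpl14 was at -1.19 and Tmem63b, 131 bases away, at -0.08 at 48 h, but both were lower at 8 h (-0.68 and -0.93) and at 24 h (-1.21 and -0.83). Among the pairs called together at 48 h, Mrpl2 was at -0.33 and Klc4 at -0.46, and Mrpl40 was at 0.57 and Hira at 0.34. Pairs were chosen after their values were seen. The difference within a pair was not tested.

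Among 15 genes for transcription and upkeep of mitochondrial DNA, 2 fell and 1 rose at 3 h and 6 fell and 1 rose at 8 h. Over all genes 4.08% fell and 3.36% rose at 3 h, and 7.58% fell and 5.34% rose at 8 h. At 8 h Pnpt1, an RNA-degrading enzyme, was at -1.04 and -0.54 (-0.79 ± 0.15, adjusted p = 0.015), and Polg2, the accessory subunit of the mitochondrial DNA polymerase, was at 1.00 and 0.96 (0.98 ± 0.13, adjusted p = 0.00329). Polg2 was also higher at 3 h, at 0.51 and 0.72, and so went against the other called genes of its list at both times.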
